A study of Amphimedon queenslandica with 124 samples.

Results

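The genes described here are the 120 gene models of the demosponge Amphimedon queenslandica whose RNA stood highest above every other developmental stage in cleaving embryos. They were selected on measured values, ranked among the 36868 gene models of the count table, by a margin: the mean log2(CPM + 1) of the cleavage embryos minus the highest such mean among the other 13 stages, where CPM is the usual scaling of counts to the library total. The margin was above 0 for 5489 gene models, and the 120 largest margins were kept. They ran between 1.84 and 4.83 log2 units with a median of 2.31. The members just inside the limit had margins of 1.85, 1.84 and 1.84, and the gene models just outside had 1.84, 1.83 and 1.82, so the edge of the set falls within a continuous range. Since cleavage levels and all other stage means chose the members, their height at cleavage and their lower levels elsewhere are given as a description with no test.

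In animal embryos the first divisions run on RNA and protein that the mother placed in the egg, and these maternal RNAs are cleared as the embryo's own genome is switched on. Amphimedon broods its embryos inside the adult, in chambers where different stages lie together, and maternal nurse cells are taken into sponge eggs and embryos. The early stages are named by the look of the embryo: brown after cleavage, then cloud, spot and ring by the way pigment cells gather at the posterior pole of the larva to be. The larva then swims freely, settles, and is remodelled by way of a mat, chambers and tent-poles of tissue into a feeding juvenile.

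The study measured whole single individuals by CEL-seq, a method that barcodes and amplifies the polyadenylated RNA of each individual and reads the 3′ ends of its transcripts. Individuals came from Heron Island, Australia, and were sorted into stages by morphology, with no treatment and no genotype, strain or age in hours in the labels. The choice of genes rested on 86 libraries. Cleavage, brown and cloud had 7 libraries each, the 2 spot stages (spot, late spot) and the 2 ring stages (ring, late ring) also had 7 each, and there were 13 free-swimming larvae. From settlement on there were 9 mat-formation libraries and 3 each for settlement, chamber-formation, tent-pole-formation, juvenile and adult. Up to free-swimming these are individuals numbered 1 to 100 in the labels, and from settlement on they are individuals numbered 101 to 124. Because early and late stages come from different number sets, stage and set cannot be told apart in any value set across free-swimming and settlement. A further 37 labelled libraries of settlement, mat-formation, tent-pole-formation and juvenile, numbered 1 to 100, took no part in choosing the genes and are given apart. Of these, 30 hold under 100000 counts.

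The libraries used to choose the genes hold between 147197 and 3059409 counts, and the cleavage libraries between 214376 and 1632860. One count is thus worth between 0.612 and 4.66 CPM in a cleavage embryo. The labels do not say which embryos shared a mother, so p-values measure the spread between these individuals. Gene identifiers are not paired with gene names or markers in the sources used here, so no function is given for any member and no stage could be checked against markers of its cell types. In whole individuals, fewer cells that hold an RNA and less of it per cell cannot be told apart. CPM values are shares of a library, so when the members take a large share the CPM of all other genes is lower by that share.

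The 120 genes made up a large part of the RNA of a cleaving embryo. They held 11.0, 28.9, 17.4, 32.2, 18.3, 14.9 and 16.3% of all counts in the 7 cleavage embryos. The share was 4.16, 0.658, 0.952, 4.07, 1.77, 1.69 and 1.92% in the 7 brown embryos. It was 1.70, 0.659, 0.828, 0.506, 0.760, 0.664 and 0.702% in the 7 cloud embryos. Every cleavage embryo lay above every brown embryo, while brown and cloud overlapped. The 3 cleavage libraries with the fewest counts, replicates 2, 3 and 4 at 236080, 325307 and 214376 counts, included the 2 highest shares, so that depth and share moved together within the stage, and the part of depth was not tested. In the 4 cleavage libraries of at least 500000 counts the share still ran between 11.0 and 18.3%.

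**Figure D1:**
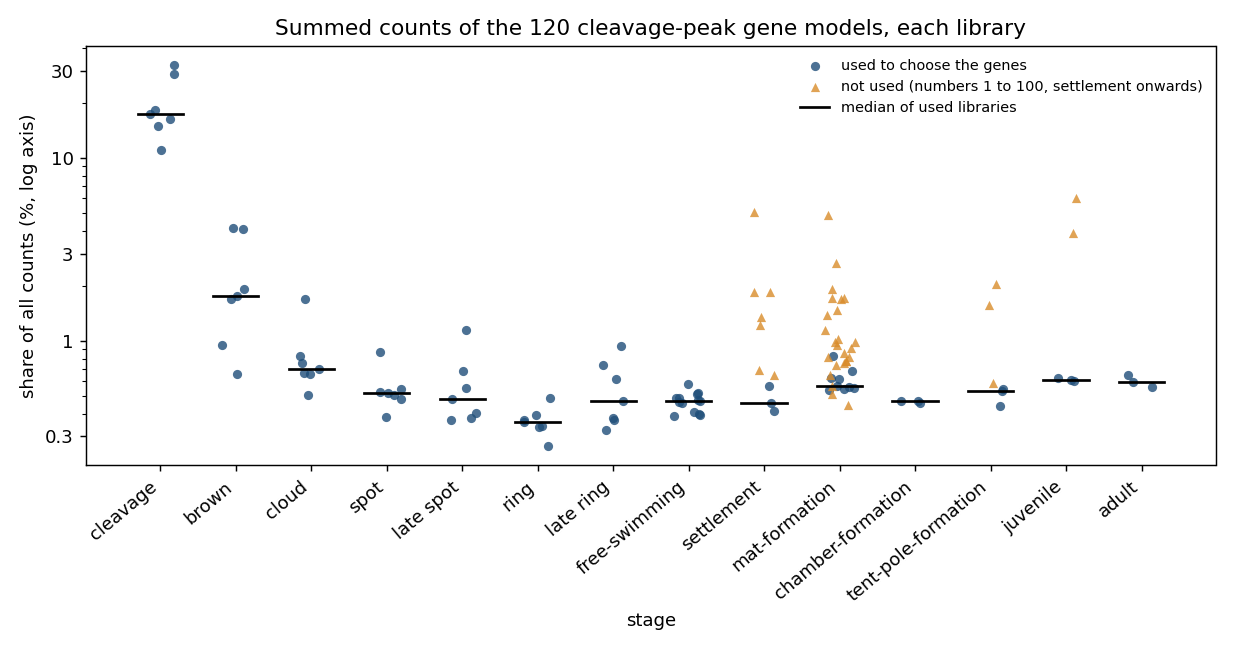
Share of all counts held by the 120 genes in each labelled library (y axis, percent, log axis) by stage (x axis, in developmental order); circles are libraries used to choose the genes, triangles the 37 that were not, and bars the median of the used libraries. The median is 17.4% at cleavage, 1.77% at brown and 0.702% at cloud, and stays between 0.359 and 0.610% in all later stages.

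The members were unequal in abundance at cleavage. Their mean cleavage level spanned 4.50 to 78426 CPM with a median of 117 CPM. The 26 members at or above 1000 CPM supplied 90.9% of the set's CPM, the 63 members between 20 and 1000 CPM supplied 8.86%, and the 31 members under 20 CPM supplied 0.203%. These are shares of 3′ end counts and were not divided by transcript length. Of the 120, 92 had counts in all 7 cleavage embryos, 23 in 6 and 5 in 5, and 7 members drew over 50% of their cleavage CPM from a single embryo. The least abundant member rested on 17 counts over the 7 embryos, so the low members are measured far less precisely than the abundant ones.

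The most abundant member, Aqu2.1.20225_001, was chosen for description after its values were seen. It had 36179.5, 122878, 79875, 140277, 65441, 43772 and 60562 CPM in the 7 cleavage embryos, which is between 3.62 and 14.0% of an embryo's counts from a single gene model. In the brown embryos it had 14136, 316, 1072, 15038, 7095, 1678 and 5283 CPM, a mean of 8.13% of its cleavage mean. The cloud embryos had 431, 671, 501, 570.4, 783, 534 and 624 CPM. Its levels at cleavage and brown did not overlap, and neither did those at brown and cloud apart from brown replicate 2, which lay below all 7 cloud embryos. The stage means then continued down through 408 CPM at spot, 153 CPM at late spot and 132 CPM at ring. The late ring mean was higher again at 354 CPM, with 1910.1 CPM in 1 of its 7 embryos and a median of 99.9 CPM, and the free-swimming mean was 63.0 CPM. The means were between 8.81 and 43.9 CPM in all stages from settlement to adult.

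The member with the largest margin, Aqu2.1.24555_001, had 6406, 10437, 6087, 32354, 6475, 13292 and 16320.0 CPM in the cleavage embryos. Its brown levels were 1286, 79.5, 124, 1024, 405, 247 and 898 CPM. Its cloud levels were 98.2, 198, 141, 81.4, 199, 89.5 and 158 CPM. No brown embryo reached the lowest cleavage embryo, and the brown mean was 4.45% of the cleavage mean. From settlement to adult its stage means lay between 44.3 and 84.5 CPM, so it remained measurable, at under 1% of its cleavage level. The member with the second largest margin, Aqu2.1.28944_001, had 5872, 18977, 8712, 19829.6, 8339.8, 5865 and 7028 CPM at cleavage. It had 2065, 67.4, 142, 2001, 743, 157 and 703 CPM at brown and 117, 116, 72.9, 64.1, 62.9, 62.1 and 52.9 CPM at cloud. This gene was followed to near absence at settlement and came back in juveniles and adults, as described further on.

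The loss was steep between cleavage and brown and mostly complete at cloud. Over the members, the mean log2(CPM + 1) was 6.81 ± 0.58 at cleavage, 3.88 ± 0.93 at brown and 2.89 ± 0.17 at cloud (SD over libraries, n = 7 each). Spot embryos had 2.56 ± 0.12 and late spot embryos 2.45 ± 0.21, ring embryos had 2.29 ± 0.32 and late ring embryos 2.51 ± 0.37, and free-swimming larvae had 2.22 ± 0.31 (SD, n = 7 each and 13 larvae). The drop at spot was larger than the SD of either cloud or spot embryos, and the steps after spot were not larger than the SD of the stage reached. The median member lay 2.88 log2 units below its cleavage mean at brown, 3.70 at cloud, 4.13 at spot, 4.21 at ring and 4.30 at free-swimming. A level at least 8-fold under cleavage (3 log2 units) was reached by 55 of 120 members at brown, 89 at cloud and 94 at spot. It held for 91 members in late spot embryos, 94 in ring embryos, 90 in late ring embryos and 87 in larvae. For 12 members the cleavage mean itself was under 3 log2 units, so they could not meet that mark.

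Taking the drop between cleavage and late ring as the whole, the median member had completed 68.8% of it at brown (quartiles 57.7 and 86.5%) and 92.4% at cloud. By this measure 45 members were early (at least 75% at brown), 63 middle and 12 late (under 50%). Early members had low cleavage levels, with a median of 38.1 CPM, against 336 CPM for middle and 955 CPM for late members. The measure depends on level: the 31 members under 20 CPM at cleavage had only 2.76 log2 units to lose by late ring and 11 of them were at 0 counts in every late ring library, while the 26 members of at least 1000 CPM lost 5.19 log2 units. Every cleavage embryo was above every brown embryo for 39 of the 120 members, and for 2.85% of the 7730 gene models with a cleavage mean of at least that of the lowest member; the choice of members sets this gap as well. In log2 units the abundant members fell furthest at the first step, with a median drop of 3.31 log2 units at brown, against 3.09 for the middle level and 2.36 for the low one. Among 3265 other gene models that dropped by at least 1 log2 unit between cleavage and late ring, the median share completed at brown was 25.6%, but the choice of members by their margin over brown sets this gap, and nothing is read from it.

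**Figure D2:**
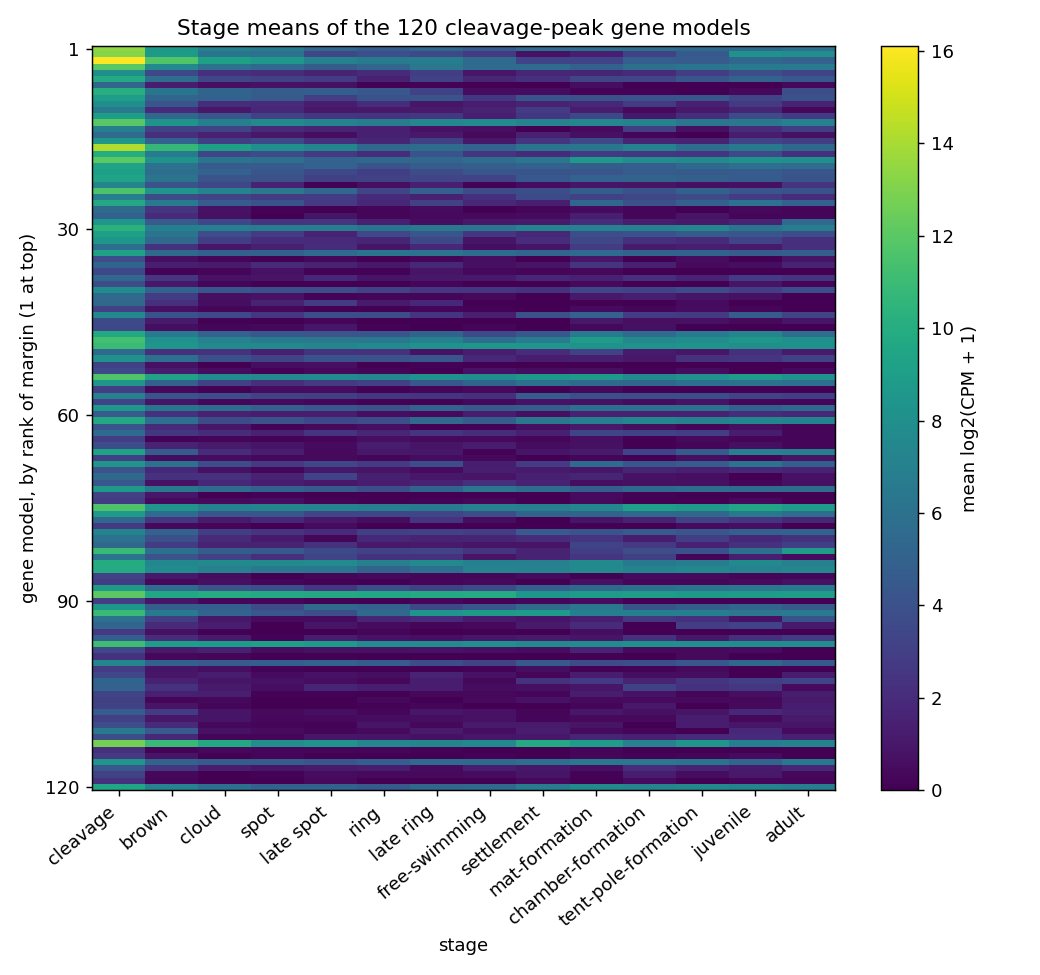
Stage means of log2(CPM + 1) (colour) for the 120 genes (rows, largest margin at the top) in the 14 stages (columns, in developmental order). Every row is brightest at cleavage, and 27 regain at least 1 log2 unit at a stage between settlement and adult.

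Detection followed the same course. When each library was thinned to 100000 counts, a median of 99 of the 120 members had a count at cleavage, 66 at brown, 53 at cloud, 52 at spot, 45 at ring, 47 at late ring and 41 at free-swimming. In the full libraries, 5 members had 0 counts in all 7 cloud embryos, 13 in all 7 ring embryos and 12 in all 13 free-swimming larvae. From settlement on, between 16 and 22 members were at 0 counts in all 3 libraries of settlement, chamber-formation, tent-pole-formation, juvenile or adult. The members were thus mostly reduced to low levels and not lost from detection as a group. The stage following closest in mean level was brown for 57 members, mat-formation and juvenile for 13 each and adult for 11.

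In the members' mean log2 level, brown embryos differed more among themselves than those of any other stage used, with an SD of 0.93, and most members shared the order. In brown replicate 1, 100 of the 120 members were above their brown mean, and in replicate 4 it was 109. The number was 23, 13, 51, 33 and 53 in replicates 2, 3, 5, 6 and 7. Put against the cleavage means, 18 and 6 members were at least 8-fold lower in replicates 1 and 4, and 79, 91, 60, 71 and 57 in replicates 2, 3, 5, 6 and 7. The median share of the drop completed was 35.0 and 42.6% in replicates 1 and 4, and 100.0, 98.4, 72.9, 88.1 and 72.2% in the other 5 brown embryos. Replicates 1 and 4 had thus lost the least, replicates 2 and 3 the most, and the other 3 lay between. In replicates 2 and 3 the members' mean log2(CPM + 1) was 3.01 and 2.96. Both lay within the cloud range of 2.54 to 3.07 and above the late ring mean of 2.51. For 64 members (53.3%) both replicate 1 and replicate 4 stood above all 5 other brown embryos, and the same order was seen in 1191 of 7730 gene models (15.4%) whose cleavage mean was at least that of the lowest member. These embryos were singled out for the members' level, so the shares are a description. Their depths, 542013 and 1388974 counts, lay within the range of the other brown libraries or just below it.

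**Figure D3:**
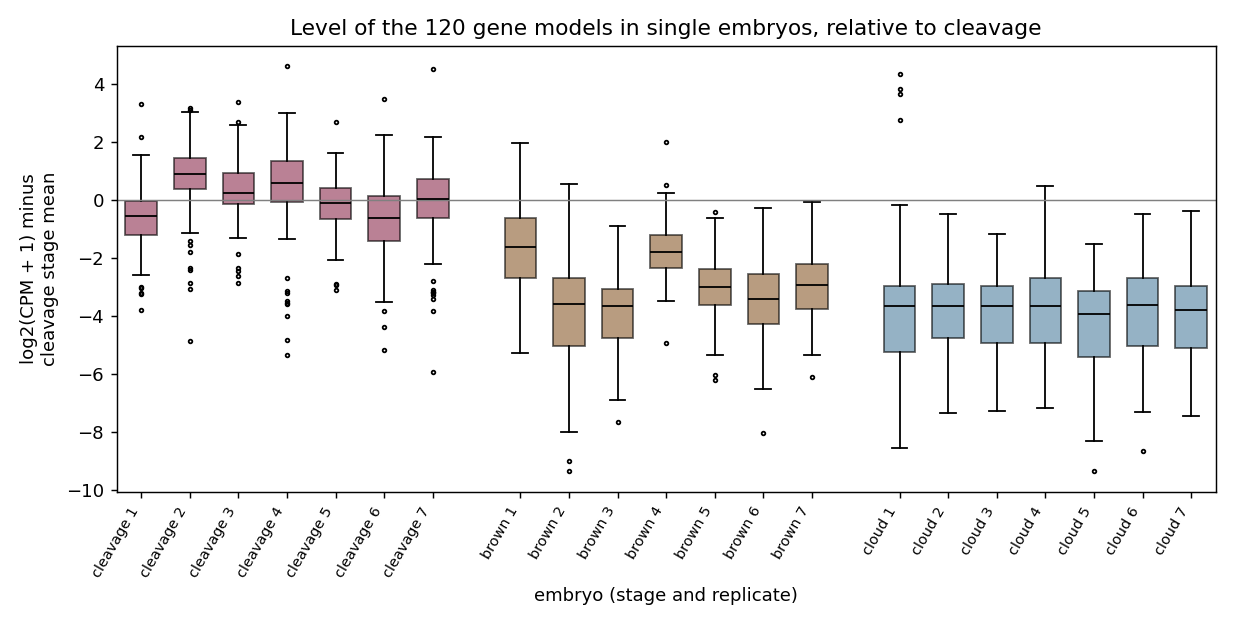
Each member's log2(CPM + 1) minus its cleavage stage mean (y axis) in the single embryos of cleavage, brown and cloud (x axis); boxes show the median and quartiles over the 120 members. Brown replicates 1 and 4 sit nearest to cleavage, brown replicates 2 and 3 lie with the cloud embryos, and the cloud embryos are alike.

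Some members with adjacent identifiers behaved as one block. Of the 120, 34 members (28.3%) have an identifier within 3 numbers of another member's, in 14 runs, of which 11 are pairs. The sources used here do not say whether the order of identifiers follows the genome. The longest run holds 5 consecutive identifiers, Aqu2.1.25687_001 to Aqu2.1.25691_001, named here after their values were seen. In each of the 5 the highest cleavage embryo was replicate 2, the next 2 were replicates 3 and 5, and replicates 1 and 6 were the lowest. Their cleavage means differed, at 1002, 16.3, 508, 1902 and 53.8 CPM in order of identifier. Genes with near-identical copies can share reads, so the counts of such neighbours are not certain to be independent. The set as a whole shared part of this order. Its mean log2(CPM + 1) was highest in cleavage replicate 2, at 7.61, and lowest in replicates 1 and 6, at 6.18 and 6.04. Replicate 4 came next after replicate 2 in the set, at 7.27, while in the run replicates 3 and 5 did. Single members were most often highest in cleavage replicate 4 (46 of the 120) or replicate 2 (43). Of the 7730 gene models with a cleavage mean of at least that of the lowest member, 12.7% were highest in replicate 4 and 14.6% in replicate 2. These libraries had the fewest counts at cleavage, 214376 and 236080, and the part of depth was not tested.

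Steps that leave cleavage out were read from fits across all gene models. The means of brown and of every other stage set the margins, so the members' counts in these fits are descriptions and not independent of the choice. In cloud against brown, of the 57 members that passed the low-count filter, 31 fell and 1 rose at an adjusted p under 0.05 (edgeR quasi-likelihood test, Benjamini-Hochberg over all gene models tested, two-sided, 7 embryos each). Among all 6363 gene models tested, 13.5% were lower and 13.1% higher in cloud. The median log2 fold change was -1.41 over the members tested and -0.08 over all gene models tested. Members called lower changed by between -1.09 and -3.91 on the log2 scale. A member can pass the filter on its brown level alone, and brown was the next highest stage for 57 of the 120 members, so nothing about the members is read from their count. The count moved with the embryos used: 20 of 58 members fell without brown replicate 1 (9.03% of all gene models), 22 of 57 without brown replicate 4 (9.43%) and 21 of 58 without cloud replicate 2 (8.37%). Without both brown replicates 1 and 4, 11 of 58 fell and 0 rose, and 6.96% of all gene models fell. In that fit 4 members rose at an unadjusted p under 0.05, and DESeq2 on all 14 embryos called 0 higher and 32 lower.

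The largest called fall among members of at least 50 CPM in brown was in Aqu2.1.25690_001, of the run of 5. It had 1.72, 5.21, 11.7, 25.8, 4.19, 33.5 and 12.6 CPM in cloud embryos, against 668, 20.7, 52.1, 740.1, 198, 14.3 and 40.0 CPM in brown embryos. The groups overlapped through brown replicates 2 and 6. The log2 fold change was -3.91 (SE 0.88) with an edgeR Benjamini-Hochberg adjusted p of 0.00498, and -2.22 (adjusted p = 0.0467) without brown replicates 1 and 4. The second was Aqu2.1.28943_001, with 15.5, 3.91, 5.50, 4.25, 0, 0.621 and 4.20 CPM in cloud embryos, against 146, 0, 11.7, 169.9, 32.5, 15.7 and 41.3 CPM in brown embryos. All but brown replicates 2 and 3 stood above every cloud embryo. It fell by a log2 fold change of -3.51 (SE 0.89, edgeR Benjamini-Hochberg adjusted p = 0.00902), and of -2.13 (adjusted p = 0.0965) without brown replicates 1 and 4. The single member called higher, Aqu2.1.23216_001, had 7463 CPM in cloud replicate 1 and between 4.19 and 21.0 CPM in the other 6 cloud embryos, against 44.3, 6.91, 31.9, 69.1, 21.1, 5.45 and 177 CPM in brown embryos. One embryo made that call: the log2 fold change was 4.67 (SE 1.67, edgeR Benjamini-Hochberg adjusted p = 0.0464) with it and -2.05 (adjusted p = 0.0412) without it.

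Between cloud and late ring a few members moved on their own. In late ring against cloud embryos, 46 members passed the filter, 7 rose and 1 fell (edgeR, Benjamini-Hochberg adjusted p under 0.05). Over all 5387 gene models tested, 18.8% were higher and 15.8% lower, and the median log2 fold change was -0.11 over the members tested and 0.00 over all gene models tested. Without late ring replicate 6, whose members stood high, 7 rose and 6 fell of 45, beside 17.9% and 15.0% of all gene models. The strongest rise was Aqu2.1.19251_001. It had 370, 229, 550.3, 141, 281, 419 and 695 CPM in late ring embryos, against 22.4, 45.0, 35.1, 46.1, 26.2, 54.7 and 44.5 CPM in cloud embryos, and the groups did not overlap. Its log2 fold change was 3.73 (SE 0.37, edgeR Benjamini-Hochberg adjusted p = 8.06e-07). This return took it to 19.2% of its cleavage mean of 2001 CPM. Aqu2.1.27073_001 had 70.9, 142, 38.1, 83.2, 56.2, 90.6 and 47.0 CPM in late ring embryos, against 81.0, 22.2, 21.3, 23.9, 49.3, 13.0 and 40.3 CPM in cloud embryos, with overlap through cloud replicates 1, 5 and 7. The log2 fold change was 1.53 (SE 0.42, edgeR Benjamini-Hochberg adjusted p = 0.00866). The one fall was again Aqu2.1.23216_001, and without cloud replicate 1 it was 0.60 with an edgeR Benjamini-Hochberg adjusted p of 0.402, against -6.09 (SE 1.76, adjusted p = 0.0125) with it.

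Free-swimming larvae had less of a few members than late ring embryos. Of 37 members that passed the filter, 7 fell and 0 rose (edgeR, Benjamini-Hochberg adjusted p under 0.05, 13 larvae and 7 embryos), while among all 4896 gene models tested 8.46% fell and 3.21% rose. At an unadjusted p under 0.05, 2 members rose, and DESeq2 called 1 higher and 9 lower. Most of the called falls rested on 1 embryo: without late ring replicate 6, 2 of 35 fell and 0 rose, beside 8.47% and 3.11% of all gene models. Without late ring replicate 7, 9 of 38 fell and 2 rose, beside 10.9% and 5.61%. The most abundant member at cleavage, Aqu2.1.20225_001, showed this. It ran between 3.78 and 155 CPM with a median of 45.9 CPM in free-swimming larvae, against 23.2, 51.9, 201, 178, 99.9, 1910.1 and 16.2 CPM in late ring embryos. The change was -2.75 on the log2 scale (SE 0.67, edgeR Benjamini-Hochberg adjusted p = 0.00952), and -1.01 (adjusted p = 0.255) without replicate 6. Aqu2.1.33945_001 ran between 24.5 and 115 CPM with a median of 71.9 CPM in larvae, against 48.8, 86.2, 86.6, 192, 187, 155 and 394 CPM in late ring embryos, with overlap. This log2 fold change was -1.73 (SE 0.33, edgeR Benjamini-Hochberg adjusted p = 0.00118), and its largest adjusted p over all libraries left out in turn was 0.00388.

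Late ring replicate 6 carried a raised level of the members in general. Their mean log2(CPM + 1) was 3.30 in that embryo and between 2.18 and 2.53 in the other 6 late ring embryos. Aqu2.1.28944_001 had 186 CPM there and between 0 and 30.4 CPM in the other 6, and Aqu2.1.24555_001 had 224 CPM and between 20.3 and 57.6 CPM. Its depth, 1126133 counts, lay within the range of the stage.

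In the libraries used to choose the genes, the return at settlement and later stages was partial, as the choice of members by margin requires. Libraries kept out of the choice are not bound by the margin and are given further on. A member was counted as returning when its highest mean between settlement and adult was at least 1 log2 unit above its highest mean between cloud and free-swimming. This held for 27 of 120 members (22.5%), and for 3516 of 7610 other gene models (46.2%). The choice of the members caps how far they can return, and number set and stage cannot be told apart, so nothing is read from that gap. The count depends on the libraries and the scale: it was 46 over all labelled libraries of both number sets and 18 with log2(CPM + 5). The highest later stage was juvenile for 10 of the 27, adult for 8, mat-formation for 5, chamber-formation for 2, and settlement and tent-pole-formation for 1 each. At that stage the returning members were still between 1.84 and 5.03 log2 units below cleavage, with a median of 2.25. By cleavage level, 18 of the 27 came from the 63 members between 20 and 1000 CPM, 8 from the 26 abundant members and 1 from the 31 low ones. Over all members the mean log2(CPM + 1) was 2.46 ± 0.16 in the 3 settlement libraries and 2.88 ± 0.13 in the 9 of mat-formation (SD). It was 2.71 ± 0.08 with chambers forming and 2.79 ± 0.12 with tent-poles forming, then 3.02 ± 0.04 in juveniles and 3.00 ± 0.12 in adults (SD, n = 3 each).

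Juveniles and adults were tested against newly settled individuals, in 1 edgeR fit of the 24 individuals of the higher number set, in which 63 of the 120 members passed the filter. In juveniles against settlement 14 members rose and 4 fell, while 12.9% of all 10825 gene models tested rose and 10.5% fell. In adults against settlement 12 members rose and 2 fell, while 17.6% of all gene models rose and 13.2% fell. Both comparisons share the 3 settlement libraries. The median log2 fold change over the members tested was 0.38 in juveniles and 0.34 in adults, and 0.05 over all gene models in both. In adults against juveniles 2 members rose and 0 fell, beside 2.72% and 1.37% of all gene models. At an unadjusted p under 0.05, 4 members rose and 3 fell there, and DESeq2 called 2 higher and 0 lower. These calls use edgeR with a Benjamini-Hochberg adjusted p under 0.05.

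Aqu2.1.28944_001 had the largest rise. It had 291, 261 and 313 CPM in juveniles and 463, 148 and 207 CPM in adults, against 0.785, 0.626 and 0.682 CPM at settlement, which is 1 count in each settlement library. No value overlapped. Pooled over the 3 libraries of each stage, the ratio to settlement was 415 in juveniles (95% counting interval 142 to 2013) and 447 in adults (152 to 2169), with exact intervals that cover counting error only. The edgeR Benjamini-Hochberg adjusted p was 1.44e-06 in juveniles and 1.14e-06 in adults. Between those ends it rose step by step in stage means: 1.72 CPM in mats, 8.53 CPM with chambers forming and 41.5 CPM with tent-poles forming. The last of these means was uneven, with 4, 69 and 58 counts in its 3 libraries. The library with 4 counts lay below every chamber-formation library in CPM. The juvenile mean of 288 CPM was 2.71% of the cleavage mean of 10660.5 CPM.

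Its neighbour by identifier, Aqu2.1.28943_001, moved the same way. It had 111, 145 and 151 CPM in juveniles, against 0, 1.25 and 2.05 CPM at settlement. The log2 fold change was 6.46 (SE 1.04, edgeR Benjamini-Hochberg adjusted p = 7.23e-05), on 610 counts in juveniles and 5 at settlement. In adults Aqu2.1.28943_001 had 261, 34.9 and 191 CPM. The other strong adult rise was Aqu2.1.32490_001, with 311, 275 and 1062 CPM in adults, against 0.785, 2.50 and 3.41 CPM at settlement. Against settlement this was a log2 fold change of 7.51 (SE 1.42, edgeR Benjamini-Hochberg adjusted p = 0.00035). Juveniles were uneven for it, at 58.7, 470.2 and 7.78 CPM, each still above every settlement library.

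Called falls after settlement were fewer. Aqu2.1.19251_001, which had come back by late ring, was lower again later: it had 92.4, 84.0 and 74.2 CPM in juveniles and 57.9, 138 and 111 CPM in adults, against 407, 520.02 and 452 CPM at settlement, with no overlap. In juveniles the log2 fold change was -2.78 (SE 0.31, edgeR Benjamini-Hochberg adjusted p = 1.11e-06). In adults it was -2.49 (SE 0.30, edgeR Benjamini-Hochberg adjusted p = 2.93e-06). Its level therefore ran high at cleavage, low from cloud to ring, high from late ring to settlement and low again. Aqu2.1.00441_001 had 75.6, 159 and 158 CPM in juveniles, against 1533, 476 and 1007 CPM at settlement. This was a log2 fold change of -3.25 (SE 1.14, edgeR Benjamini-Hochberg adjusted p = 0.0409), and the adjusted p was above 0.05 in 5 of the 6 fits that left out a juvenile or settlement library, up to 0.141. The libraries numbered 1 to 100 did not show this fall. Their 2 juveniles, at 38188 and 21359 counts, had 56824 and 2341 CPM of Aqu2.1.00441_001. Their 7 settlement libraries had between 20.5 and 5969 CPM, with a mean of 2319 CPM, and this difference was not tested.

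The calls between adults and juveniles were few and not stable to the libraries used. In simulated counts this comparison called 14.1% of 4-fold and 38.8% of 8-fold changes, so few calls do not show that few members differed. Aqu2.1.34901_001 had 324, 17.9 and 14.7 CPM in adults, against 3.67, 0.591 and 2.12 CPM in juveniles. The log2 fold change was 5.81 (SE 1.37, edgeR Benjamini-Hochberg adjusted p = 0.0133), and 2.84 (adjusted p = 0.313) without adult replicate 1. Aqu2.1.34503_001 had 72.7, 168 and 60.7 CPM in adults, against 25.7, 32.5 and 59.4 CPM in juveniles, a log2 fold change of 1.37 (SE 0.39, edgeR Benjamini-Hochberg adjusted p = 0.0484), and its adjusted p reached 0.334 with a library left out. The groups overlapped for neither gene, though the gap was narrow for the second.

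**Figure D4:**
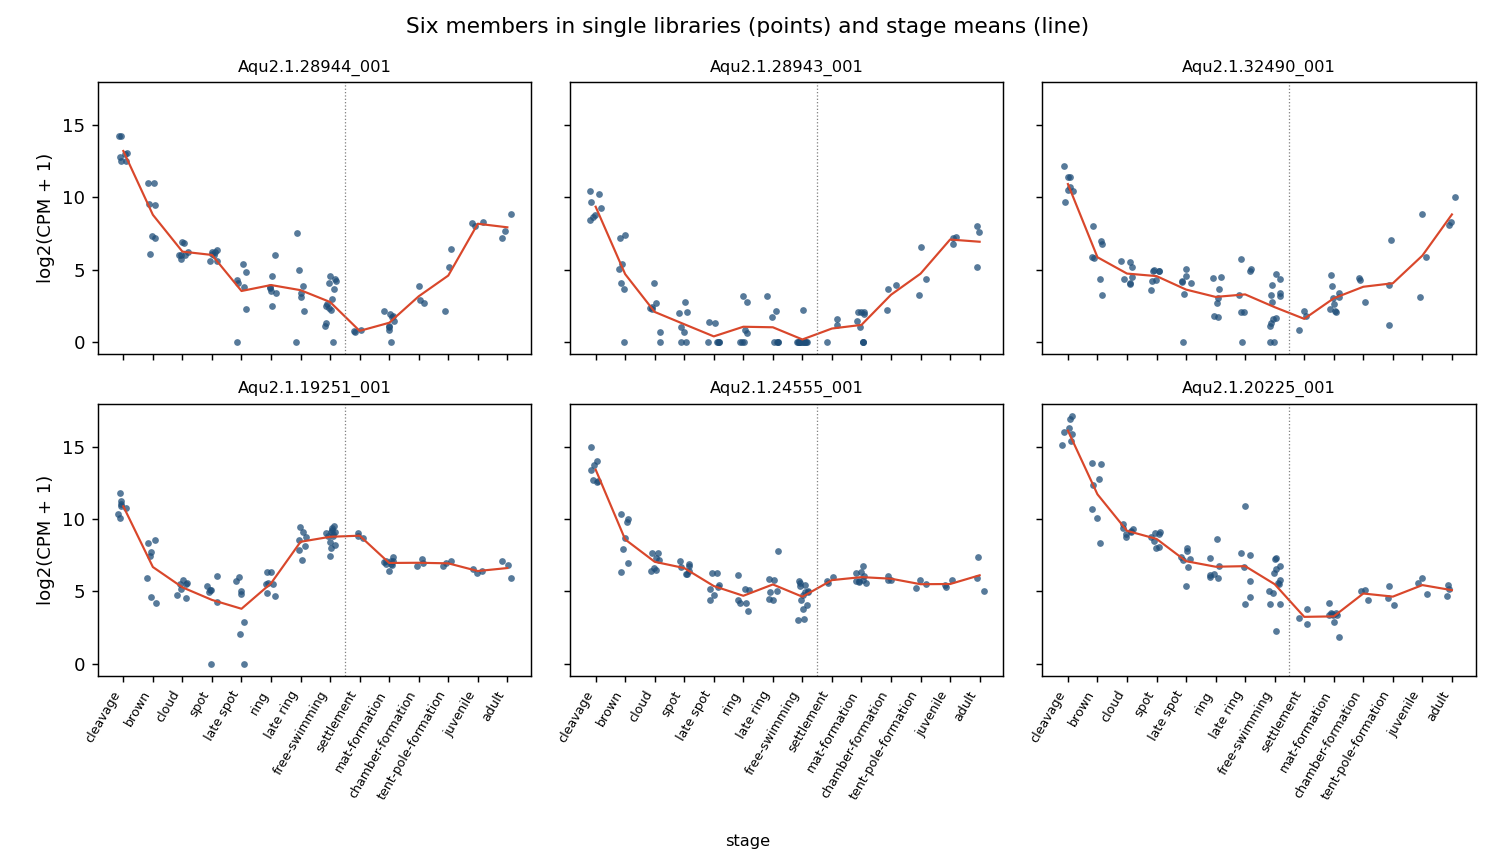
log2(CPM + 1) (y axis) of 6 members in every library used to choose the genes (points), by stage (x axis, in developmental order). Aqu2.1.28944_001, Aqu2.1.28943_001 and Aqu2.1.32490_001 are lowest at settlement or near it and high again in adults, Aqu2.1.19251_001 is high from late ring to settlement, and Aqu2.1.24555_001 and Aqu2.1.20225_001 stay low after the embryo.

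The 7 settlement libraries numbered 1 to 100 took no part in choosing the genes and were set against free-swimming larvae of the same number set. The larval means did set the margins, which hold every member low in larvae, so a rise against them is favoured by the choice and the member count is a description. Of 30 members that passed the filter, 14 rose and 1 fell (edgeR, Benjamini-Hochberg adjusted p under 0.05, 7 and 13 individuals), and of all 3581 gene models tested 12.3% rose and 15.0% fell. The median log2 fold change was 0.93 over the members tested and -0.11 over all gene models tested. Depth moved with the comparison, since the settlement libraries hold between 17429 and 300386 counts and the larvae between 174505 and 981293, and its part was not tested. With only the 4 settlement libraries of at least 100000 counts, 12 of 38 members rose and 1 fell, beside 9.60% and 9.64% of 5562 gene models.

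The rises were uneven between individuals. Aqu2.1.23216_001 had 48.3, 115, 115, 82.1, 3558, 1747 and 6901 CPM in these settlement libraries, against 0 to 91.7 CPM with a median of 24.3 CPM in larvae. Its log2 fold change was 6.19 (SE 0.77, edgeR Benjamini-Hochberg adjusted p = 1.68e-06). Aqu2.1.01924_001 had 410.2, 287, 595, 144, 0, 654 and 33.3 CPM at settlement, against 0 to 45.7 CPM with a median of 3.38 CPM in larvae. Its log2 fold change was 5.77 (SE 0.76, edgeR Benjamini-Hochberg adjusted p = 3.92e-06). The deeper settlement libraries numbered 101 to 124 did not have these levels: Aqu2.1.23216_001 was at 51.8, 94.5 and 21.1 CPM there and Aqu2.1.01924_001 at 3.92, 0 and 2.73 CPM. The single fall was Aqu2.1.29098_001, with 362, 1205, 481, 472, 456, 104 and 669 CPM at settlement, against 439 to 1802 CPM with a median of 1109.8 CPM in larvae. Its log2 fold change was -1.05 (SE 0.36, edgeR Benjamini-Hochberg adjusted p = 0.0291), and the adjusted p passed 0.05 when settlement replicate 3 or 4 or free-swimming replicate 8 was left out, up to 0.0530.

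Over all 37 labelled libraries kept out of the choice, the 120 genes held between 0.445 and 1.84% of counts in the 7 with at least 100000 counts (median 0.648%), and between 0.587 and 6.00% in the 30 with fewer (median 1.09%). None came near the 11.0% of the lowest cleavage embryo. The 4 highest were all shallow, at 38188, 17429, 44824 and 21359 counts. Single genes made up most of 2 of them and less of the other 2. In juvenile replicate 1, with a share of 6.00% (95% Wilson interval 5.77 to 6.25%), 2170 of the 2293 member counts came from Aqu2.1.00441_001, and so did 1706 of the 2184 in mat-formation replicate 23, with a share of 4.87% (4.68 to 5.08%). In settlement replicate 2, with a share of 5.03% (4.72 to 5.37%), Aqu2.1.20225_001 gave 326 of 877 member counts and 1.87% of the library, and in juvenile replicate 2, with a share of 3.89% (3.63 to 4.15%), it gave 249 of 830 member counts and 1.17% of the library. Without that gene the other members still held 3.16% of settlement replicate 2 and 2.72% of juvenile replicate 2, with 65 and 54 members detected. In the libraries numbered 101 to 124 that gene did not pass 13.0 CPM at settlement or 58.5 CPM in juveniles, and in the 4 settlement libraries numbered 1 to 100 with at least 100000 counts it had 91.7, 116, 112 and 39.9 CPM. The intervals cover counting error only. Single members passed their cleavage mean in libraries kept out of the choice. In the 7 such settlement libraries, Aqu2.1.01924_001 had a mean CPM of 340% of its cleavage mean and Aqu2.1.23216_001 had 241%. There 105 of the 120 members were at least 1 log2 unit below cleavage. In the 2 such juvenile libraries Aqu2.1.00441_001 had 416%, and 110 members were at least 1 log2 unit below cleavage.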

How the data were processed

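Whole single individuals were measured by CEL-seq. Per the labels' protocols they were staged by morphology and stored in RNAlater, RNA was extracted with TRIzol, and multiplexing barcodes were used. Per the submitters' processing notes the tools included HTSeq 0.5.4p3, Bowtie2 2.1.0 and CASAVA 1.8. The sources used here do not give their settings, strand, build or annotation, nor whether molecular identifiers were counted. The counts deposited by the authors are raw whole numbers for every gene model and library. It ends within its last line, and 36868 complete gene models were used, of which 33001 had a count. All 124 columns belong to samples, 0 do not. Of the identifiers, 0 matched the RefSeq gene table, so the gene name and marker lists could not be applied.

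Stages came from the labels. Replicates are numbered by individual number within a stage, so settlement replicates 8 to 10, mat-formation 26 to 34, tent-pole-formation 4 to 6 and juvenile 3 to 5 are the libraries numbered 101 to 124. Counts were scaled to CPM of a library and log2(CPM + 1) taken for stage means, in Python 3.11.15. Tests used edgeR 4.0.16 in R 4.3.3 on the counts (quasi-likelihood, TMM, filterByExpr at its minimum count of 10 and minimum total of 15), fitted over all gene models, with Benjamini-Hochberg adjusted p under 0.05 called. Standard errors are the absolute log2 fold change over the square root of F. The Wald test of DESeq2 1.42.0, with its default size factors, was an alternative. Others were edgeR with DESeq2 size factors from positive counts, no filter, other scalings and libraries left out. The fits were tested on simulated counts. Of 4-fold changes, between 63.1 and 66.2% were called in the comparisons of numbers 1 to 100. The share was 42.4% in juvenile against settlement, 30.8% in adult against settlement and 14.1% in adult against juvenile. Of 2-fold changes these last 3 called 0, 3.17 and 1.45%, so many true changes can go uncalled. Named gene models are the 2 largest margins and, per comparison, at most the 2 rises and 2 falls of largest fold change among called members with at least 50 CPM in the higher stage; others are said to be chosen later. The members and lists were chosen with earlier results of these data known.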

Additional observations from a re-analysis of the deposited data

Results flagged for a closer look

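Single libraries far from the rest of their stage were sought by Dixon's test at the 95% level in 38 groups of 4 to 10 values. It marked 13. The test's rate of about 1 in 20 holds for independent normal values. CPM values and shares were not checked for this, and the same libraries recur across groups, so the 13 are not weighed against that rate.

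Of the members' share of counts, 4 values stood apart. Cloud replicate 1 had 1.70%, and the other 6 cloud embryos had 0.506 to 0.828%. Spot replicate 7 had 0.864%, late spot replicate 5 had 1.14% and settlement replicate 2 had 5.03%. Aqu2.1.23216_001 gave the most member counts in cloud replicate 1, at 7463 CPM, and in late spot replicate 5, at 5858 CPM. In spot replicate 7 it was Aqu2.1.00441_001, with 775 of 3240 member counts and 2066 CPM, and between 49.9 and 475 CPM in the other 6 spot embryos; Aqu2.1.23216_001 had 429 CPM there. Of the members' mean log2(CPM + 1), cloud replicate 5 stood low at 2.54 and late ring replicate 6 high at 3.30.

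Of the named gene models, Aqu2.1.24555_001 reached 32354 CPM in cleavage replicate 4, and 6087 to 16320.0 CPM in the other 6 embryos. Aqu2.1.23216_001 was marked with 7463 CPM in cloud replicate 1, 177 CPM in brown replicate 7 and 36.4 CPM in late ring replicate 6. Aqu2.1.28943_001 had 15.5 CPM in cloud replicate 1. Aqu2.1.20225_001 had 1910.1 CPM in late ring replicate 6 and at most 201 CPM in the other 6. Aqu2.1.33945_001 had 394 CPM in late ring replicate 7.

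The library with no stage in its label entered no comparison. It holds 23082 counts, and the members took 1.18% of them.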

How the results depend on the processing

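The set of 120 depends on how the stage level is summarised: 76 members were kept with stage medians and 72 with the log2 of the stage mean CPM + 1, and between 84 and 114 under the other alternatives; leaving out each cleavage embryo kept 98 to 110. The median share of the drop completed at brown ran between 62.2 and 82.0%, and between 67.5 and 69.4% with a cleavage embryo left out. Returning members numbered 46 over all labelled libraries, 18 to 37 under the other alternatives and 27 with any cleavage embryo left out. Members called in cloud against brown numbered 11 without brown replicates 1 and 4, and 20 to 32 with 1 embryo left out; in late ring against cloud 14 without a filter and 6 to 13; in free-swimming against late ring 18 without a filter and 2 to 11; in settlement against free-swimming 52 without a filter and 13 to 16; in juvenile and adult against settlement 12 to 16 and 10 to 19. In adult against juvenile they numbered 1 with DESeq2 size factors, 0 in a fit of the 2 stages, 1 with a replicate block of the runs of 8 numbers and 0 to 3 with a library left out. The replicate block gave 19 in juvenile and 15 in adult against settlement. The numbers are not stated to pair individuals, and no paired analysis was possible because the other stages share none. For Aqu2.1.23216_001, cloud against brown turned to -1.10 with DESeq2 and -2.05 without cloud replicate 1, and late ring against cloud to 0.56 and 0.60; with each other embryo left out they reached 5.47 and -6.57. Of 320 values of named gene models under alternatives, 287 kept direction and side, 29 lost the call and 4 turned. Leaving out single embryos or larvae, and brown replicates 1 and 4, was chosen after seeing the data. Depth limits the members under 20 CPM most, since 1 count is up to 4.66 CPM at cleavage, and the 30 libraries under 100000 counts.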

Other observations

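The library with no stage in its label has 273 counts from the 120 genes, with 59 of them detected and a mean log2(CPM + 1) of 3.43.

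Adjacent identifiers did not always share a pattern over the cleavage embryos. Aqu2.1.35495_001 and Aqu2.1.35498_001, named after their values were seen, have a Pearson correlation of -0.83 over the 7 cleavage embryos, and Aqu2.1.28943_001 and Aqu2.1.28944_001 have 0.95. Over all 7140 pairs of members the median correlation was 0.30, and 69.9% of pairs were above 0. All pairs share libraries, depths and the scaling to library totals, so these are given as a description of these embryos.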
